A study of Mus musculus with 22 samples.

Results

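The late-annotated mouse miRNAs described here are the probes named mmu-miR- followed by a number of 4 digits, from miR-1186 upward. They were chosen by name alone, and 111 of the 566 mouse probes on the panel carried such a name, out of 599 endogenous probes in all. RNA came from the fourth left mammary gland of female C57BL/6 mice that were 4 to 5 weeks old at the start and received a diet for 3 weeks. The 22 glands fell into 4 groups. The control mice received the basal AIN-93G diet (n = 5), 6 mice received 10% flaxseed, 5 received 3.67% flaxseed oil, and 6 received 0.15% SDG, which is secoisolariciresinol diglucoside, a lignan of flaxseed. Each gland was counted in a lane of its own on a NanoString nCounter panel, in which a fluorescent barcode reports each captured miRNA without amplification. Lanes are named by diet and animal number.

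MiRNAs are short RNAs that guide Argonaute proteins to messenger RNAs, mainly through bases 2 to 8 of the mature strand, the seed. MiRBase numbers its entries in the order in which they were submitted, so high numbers mostly stem from deep sequencing, after the abundant families had been named. Some of these entries come from unusual precursors: miR-1224 is a mirtron, released from a spliced intron without Drosha, and miR-1839 is processed from a small Cajal body RNA. Several others were later withdrawn from miRBase as pieces of transfer or ribosomal RNA. The panel's miR-720, with a number of 3 digits, is such a piece of a threonine transfer RNA.

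Mature sequences were taken from RefSeq (GRCm38.p6), which matched 74 of the 113 names on these probes and 19 of the 37 names on the probes that could be tested. Capitals mark the seed. The first set holds the miRNAs named as examples of the group or leading a diet comparison. MiR-1839-5p lies at chr7:81529919-81529940 on the plus strand, within the span of the long non-coding RNA gene 2900076A07Rik. MiR-1931 lies at chr10:93162879-93162900 on the plus strand, within the span of Cdk17, a protein-coding gene. MiR-3471 lies at chr4:10845585-10845606 on the minus strand, outside the span of any listed gene. MiR-1224 has 2 mature arms, at chr16:20604452-20604472 and chr16:20604516-20604536 on the plus strand, both within Vwa5b2, and the probe name does not say which arm it captures. MiR-2141 and the miR-1937 names were not matched.
miR-1839-5p: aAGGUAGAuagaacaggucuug
miR-1931: aUGCAAGGgcuggugcgauggc
miR-3471: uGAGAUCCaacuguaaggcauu
miR-1224-5p: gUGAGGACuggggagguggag
miR-1224-3p: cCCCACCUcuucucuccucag

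The second set shows the one tested miRNA of the group whose seed was shared with other miRNAs on the panel. The 23 mature strands matched to tested probes carried 23 different seeds. MiR-1961, at chr5:92788465-92788481 on the minus strand within the span of Shroom3, carries the seed GAGGUAG together with 9 other mature strands, those of let-7 members and miR-98. Its RefSeq entry is 17 bases long, and its first 13 bases equal those of let-7g-5p (chr9:106178846-106178867, plus strand) and let-7i-5p (chr10:122985698-122985719, minus strand). Whether the miR-1961 probe also captures let-7 was not tested.
miR-1961: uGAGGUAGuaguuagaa
let-7g-5p: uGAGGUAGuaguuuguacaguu
let-7i-5p: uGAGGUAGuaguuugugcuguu

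Endogenous counts per lane ranged from 260551 to 762146. In 3 lanes miR-720 held more than 40% of them: basal 1 (65.4%), flaxseed 3 (53.7%) and SDG 5 (47.4%), against at most 8.61% in the other 19 lanes. The geometric mean of the 4 housekeeping mRNA probes was 135 counts in flaxseed 3 and lay between 1070 and 4407 in the other lanes. These 3 lanes belong to 3 diets, and results are given with and without them. In whole tissue, fewer cells of a type and less RNA per cell cannot be told apart. Of 6 miRNAs fixed as markers of mammary epithelium, all 6 were above background in every lane, with a summed level between 11.3 and 14.7 log2 CPM (the log2 level from counts scaled to a common library size by TMM, with 1 count added). Markers of striated muscle ranged much more widely, from 8.40 to 17.5 log2 CPM in sum, and 1 of the 4 was above background in every lane. The 2 lymphocyte markers were above background in every lane and summed to 12.5 to 13.0 log2 CPM in basal, 12.9 to 14.97 in flaxseed, 12.7 to 16.7 in oil and 12.8 to 16.7 in SDG lanes. The endothelial marker ranged from 14.5 to 16.0. Their part in the results below was not tested.

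Most probes of the group were at or near background in the gland. A probe was called above background in a lane when its count was more than 2 SD above the mean of the 8 negative controls there. By this rule 15 of the 111 probes were above background in all 22 lanes, 21 in 5 to 21 lanes, 19 in 1 to 4 lanes, and 56 in no lane. Probes above background in no lane made up 50.5% of the group and 38.0% of the 455 other mouse probes. Only 13.5% of the group, against 27.5% of the other mouse probes, was above background in every lane. The share of the group above background was lower than that of the other mouse probes in 22 of 22 lanes.

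The 36 probes above background in at least 5 lanes are called tested. They were 32.4% of the group, against 47.7% of the other mouse probes. By number, 6 of 16 probes below miR-1300 were tested, 3 of 12 from miR-1300 to miR-1899, 17 of 60 from miR-1900 to miR-1999, 8 of 15 from miR-2000 to miR-2999, and 2 of 8 from miR-3000 upward. Of the imprinted Dlk1-Dio3 cluster, none of the listed miR-1188, miR-1193 and miR-1197 was tested, and miR-1193 was above background in 2 lanes. MiR-3072, which was not on that list but lies on the same chromosome at chr12:109747893-109747914 (5p arm), was above background in no lane. MiR-1906 has a RefSeq locus within Meg3, the long non-coding RNA of that domain (chr12:109544588-109544609), and a second locus on the X chromosome, and its probe was above background in 19 lanes. MiR-1951 and miR-3472, in 5 lanes each, were just inside the limit, followed by miR-1186b, miR-2134 and miR-2146 in 6. MiR-1902, miR-1933-5p and miR-1981, in 4 lanes each, were just outside, with median counts of 22, 26 and 25.5. MiR-1274a, a piece of a lysine transfer RNA, was above background only in flaxseed 3 (32 counts) and SDG 5 (108 counts), with at most 20 counts elsewhere. A probe below the threshold is not shown to be absent.

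**Figure D1:**
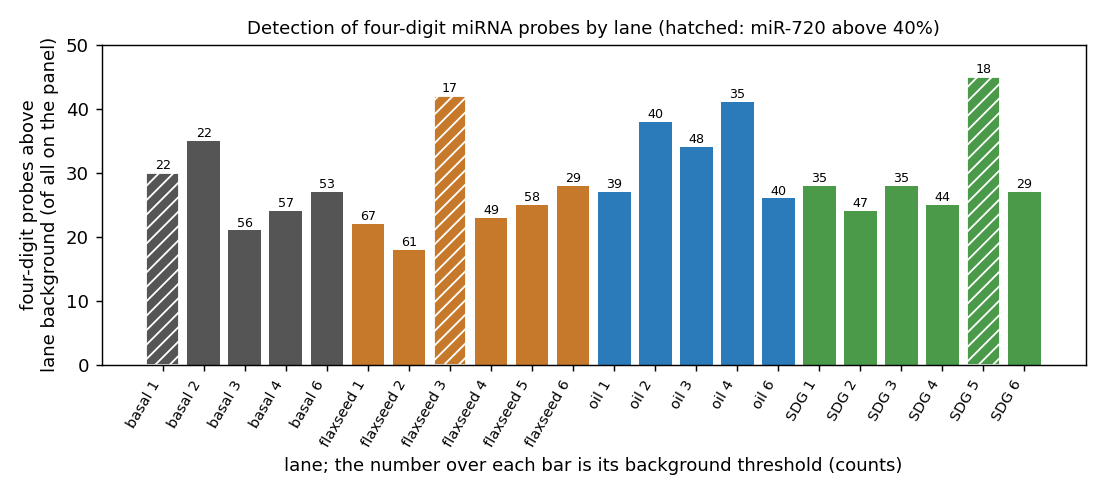
Number of four-digit miRNA probes above the lane's background (of 111) in each of 22 lanes, with the background threshold in counts above each bar. Hatched bars are the 3 lanes with miR-720 above 40%. The number ranges from 18 in flaxseed 2 to 45 in SDG 5, and flaxseed 3 and SDG 5 have the lowest thresholds.

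The number of the group's probes above background ranged from 18 in flaxseed 2 to 45 in SDG 5. The threshold itself ranged from 17.5 counts in flaxseed 3 to 66.8 in flaxseed 1. SDG 5 (45 probes, threshold 17.8) and flaxseed 3 (42 probes) thus combined the lowest thresholds with the highest numbers, as the plot of detection by lane shows. Of the 111 probes, 8 were above background in none but the 3 lanes with high miR-720. By diet, the mean number was 27.4 ± 5.41 (SD, n = 5) in basal, 26.3 ± 8.36 (n = 6) in flaxseed, 33.2 ± 6.61 (n = 5) in oil and 29.5 ± 7.77 (n = 6) in SDG lanes. None of the 6 pairwise differences passed a two-sided exact permutation test, with p between 0.183 and 0.840 and adjusted p between 0.571 and 0.840. Without the 3 lanes, oil exceeded flaxseed by 10 probes on average (33.2 ± 6.61 against 23.2 ± 3.70, n = 5 each). The exact permutation p was 0.0317, and 0.190 when adjusted over the 6 comparisons. In the same lanes, 41.1 to 51.4% of the other mouse probes were above background in oil and 34.1 to 44.0% in flaxseed. Thresholds were 34.8 to 48.3 counts in these oil lanes and 29.0 to 66.8 in these flaxseed lanes. Whether the difference is particular to the group was not tested.

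The group contributed 2.78% (flaxseed 2) to 7.87% (basal 1) of a lane's endogenous counts. Exact binomial 95% intervals were 2.73 to 2.84% and 7.78 to 7.95%, and they cover counting error only. A few probes carried most of this. MiR-1944 and both miR-1937 probes, the 3 tested probes with a median above 1000 counts, made up 60.7 to 90.4% of the group's counts. MiR-1944 had between 3709 (flaxseed 6) and 18728 (flaxseed 3) counts. The probe for miR-1937a and miR-1937b had between 707 (SDG 1) and 8323 (SDG 5) counts, and the probe for miR-1937c between 1045 (flaxseed 2) and 10932 (SDG 5). Next by median level were miR-2132 (128 to 2593 counts), miR-1186 (125 to 387) and miR-1900 (90 to 375). The levels of different probes depend on their capture efficiency and are not compared further.

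**Figure D2:**
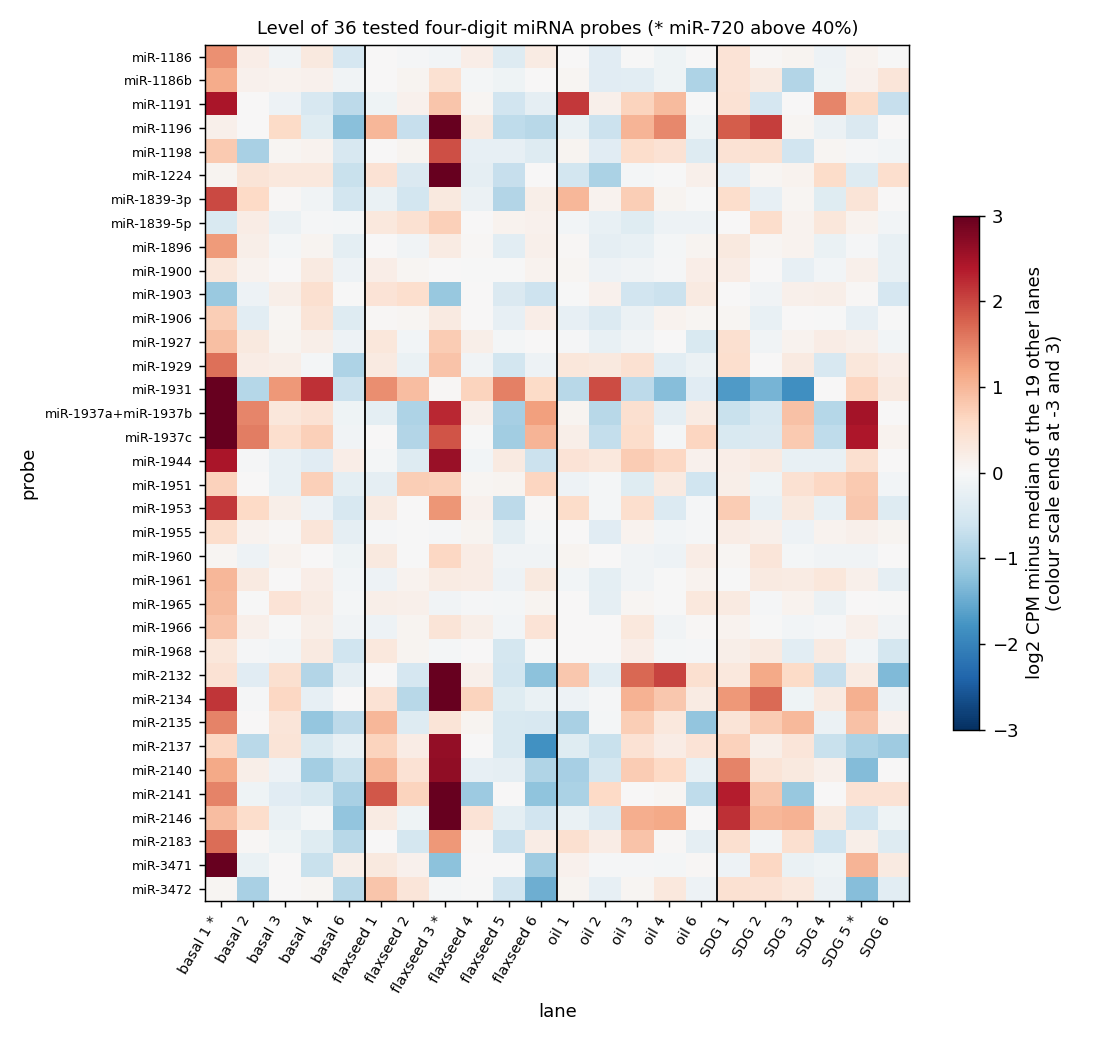
Level of the 36 tested four-digit probes in each lane, as log2 CPM minus the probe's median over the 19 lanes without high miR-720 (red above, blue below; the scale ends at -3 and 3). Lines separate the diets and asterisks mark the 3 lanes with miR-720 above 40%. The deepest reds lie in basal 1 and flaxseed 3, and in SDG 5 for the miR-1937 probes.

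Lanes with high miR-720 stood apart for many of the tested probes, and each in its own way. In basal 1, 18 of 36 tested probes were more than 2-fold above their median over the other 19 lanes, against 22.8% of all 254 tested probes. In flaxseed 3, 14 were, against 26.4% of all, and in SDG 5, 4 were, against 4.72%. More than 2-fold below were 1, 2 and 2 of the 36. Scaled by the positive controls in place of TMM, 5, 9 and 2 of the 36 were above, against 3.15%, 9.06% and 3.15% of all, and 9, 8 and 4 were below. In basal 1 and SDG 5 the probes below thus outnumbered those above under that scaling. The median difference of the 36 from the other lanes' median was 0.98 log2 units in basal 1, 0.71 in flaxseed 3 and 0.15 in SDG 5 under TMM. Under positive control scaling it turned to -0.59, -0.44 and -0.23, while the median of all probes moved to -1.31, -0.87 and -0.34. Under TMM, 24 tested probes were more than 2-fold above in at least 1 of the 3 lanes, and 4 (miR-1903, miR-2140, miR-3471 and miR-3472) were more than 2-fold below in at least 1.

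Both miR-1937 probes and miR-2134 were more than 2-fold above in all 3 lanes under TMM. MiR-2134 was above background in 6 lanes but in 3 of the 19 others, so it was tested only through these lanes, as were miR-1186b and miR-1951. The probe for miR-1937a and miR-1937b had 15.6 log2 CPM in basal 1, 14.1 in flaxseed 3 and 14.3 in SDG 5, and at most 13.3 in the other lanes. The miR-1937c probe had 15.5, 14.2 and 14.7, and at most 13.8 elsewhere. Under TMM the 3 lanes were thus the highest for both probes. By raw count flaxseed 3 was not among the 3 highest for either probe. Its 3927 counts of miR-1937a and miR-1937b lay below basal 2 (4043). Its 4192 counts of miR-1937c lay below basal 2 (5858), oil 3 (4730), basal 4 (4421) and flaxseed 6 (4348). MiR-1944 separated basal 1 (16.2 log2 CPM) and flaxseed 3 (16.3) from the other lanes under TMM, but not SDG 5 (14.2). The SDG 5 value lay inside the range of the other 19 lanes, whose highest was 14.5. By raw count, basal 1 (11071) lay below basal 6 (13329), flaxseed 5 (12971), oil 2 (14047), oil 3 (15228) and oil 4 (15168).

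Of the 8 tested probes from miR-2000 to miR-2999, flaxseed 3 was the highest lane under TMM for 6, and basal 1 for miR-2135 and miR-2183. Over the whole group flaxseed 3 was highest under TMM for 12 of the 36, and for 24.41% of all tested probes. Under positive control scaling flaxseed 3 was highest for 7 of the 36 and 5.12% of all. MiR-2141 had 1368 counts there and at most 258 elsewhere. MiR-2132 had 13.4 log2 CPM, against at most 11.8 elsewhere, although its raw count of 2410 was below that of oil 4 (2593). MiR-2146 had 188 counts against at most 88 elsewhere. MiR-2137 and miR-2140 were also highest there, as was miR-2134, which was tested only through the 3 lanes with high miR-720. MiR-1224, the mirtron, had 1128 counts in flaxseed 3 and at most 241 in any other lane. Under TMM basal 1 held the highest level of 21 of the 36 probes and of 24.02% of all tested probes. Under positive control scaling it held 2 of the 36 and 1.18% of all. For 6 of the 21, among them miR-1900 and miR-1955, its raw count was the lowest of any lane. MiR-3471 stood apart by counts too, with 164 counts and 10.1 log2 CPM, against at most 7.37 log2 CPM in any other lane.

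Within the 19 other lanes the level of miR-720 was set against each of the 36 probes, as a description over lanes that share depth and scaling. The highest Spearman coefficients were those of the probe for miR-1937a and miR-1937b (rho = 0.44, Pearson r = 0.53), miR-1961 (0.43 and 0.42), miR-1937c (0.42 and 0.50), miR-1896 (0.32 and 0.23) and miR-1966 (0.29 and 0.29). The lowest were those of miR-1198 (rho = -0.61, r = -0.69), miR-3471 (-0.61 and -0.51), miR-3472 (-0.61 and -0.58), miR-2141 (-0.53 and -0.35) and miR-2137 (-0.51 and -0.53). By permutation, and adjusted over the 36 probes, miR-1198 passed for Pearson's r (p = 0.00109, adjusted 0.0392) but not for Spearman's rho (p = 0.00606, adjusted 0.0845). The lanes were permuted without regard to diet, and the part of diet in these coefficients was not tested. The r of miR-1198 was -0.64 without the 2 lanes farthest from the median of miR-720. No other probe passed by either measure, and miR-1961 fell to r = 0.19 without 2 lanes.

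Some probes of the group were very even across all glands under TMM. Over 22 lanes, 7 of the 10 smallest SDs of log2 CPM among the 254 tested probes belonged to the group. The group held 36 of these 254 probes. MiR-1900 had the smallest, at 0.16, followed by miR-1960 at 0.20 and miR-1955 at 0.20, with miR-1966, miR-1965, miR-1906 and miR-1968 also among the 10. Without the 3 lanes with high miR-720, 3 of the 10 belonged to it. The smallest SDs there were outside the group, at 0.11 for miR-28, 0.12 for miR-30d and 0.14 for let-7i. MiR-1955 had rank 15 there. MiR-1900 spanned 8.64 to 9.23 log2 CPM over all lanes and miR-1960 spanned 7.69 to 8.46. The highest level of miR-1900 lay in basal 1, where its raw count (90) was its lowest, against up to 375 in flaxseed 5. Under positive control scaling the median difference of all tested probes in basal 1 from the other lanes was -1.31 log2 units. SDs were not computed under that scaling, so the evenness is shown for TMM only. The group as a whole was not even: its median SD was 0.60, against 0.52 for the other tested probes, and 0.39 against 0.35 over 19 lanes. MiR-1931 had an SD of 1.26 over 19 lanes, and miR-2141 of 0.98. The sequences of the 3 most even probes over 22 lanes are shown, since they share the low spread but not the seed. MiR-1900 lies at chr9:21032261-21032282 on the minus strand within the span of Icam5, miR-1960 at chr5:30170751-30170772 on the plus strand within Hadhb, and miR-1955-5p at chr2:92191994-92192018 on the plus strand within Phf21a.
miR-1900: gGCCGCCCucucugguccuuca
miR-1960: cCAGUGCUguuagaagagggcu
miR-1955-5p: aGUCCCAGgaugcacugcagcuuuu

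**Figure D3:**
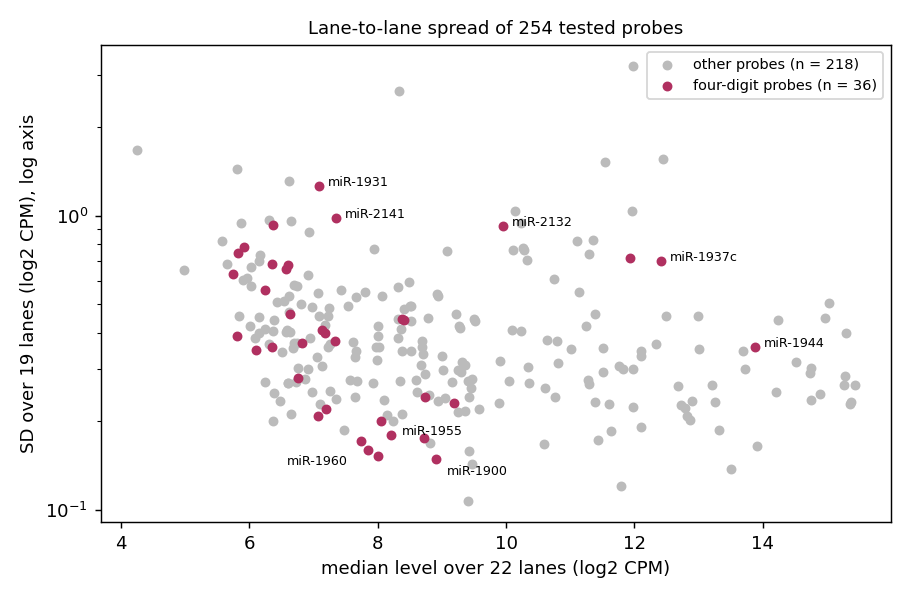
Median level over 22 lanes (log2 CPM) against the SD over the 19 lanes without high miR-720 (log2 CPM, log axis) for 254 tested probes, with the 36 four-digit probes in red. MiR-1931 (1.26), miR-2141 and miR-2132 are widely spread, while miR-1900, miR-1955 and miR-1960 lie along the lower edge.

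The diets were compared in one edgeR quasi-likelihood fit of all 254 tested probes, with Benjamini-Hochberg adjustment within each comparison. No probe of the group passed an adjusted p of 0.05 in any of the 6 pairwise comparisons or in the test for any diet difference from basal, and limma-voom also gave 0. Over all 254 probes edgeR called 0.0% in each of the 7 tests. The median SE of the group's log2 fold changes lay between 0.36 and 0.39. Differences well above that size could also not be told from 0 with these numbers of mice. In flaxseed against basal, miR-2141 had a log2 fold change of 2.75 ± 0.99 (SE), with an edgeR adjusted p of 0.554. The 3 comparisons with basal share the basal lanes, and the others share lanes likewise.

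Flaxseed against basal asks what the whole seed did. At an unadjusted p of 0.05, 6 of 36 probes passed, 4 higher and 2 lower in flaxseed, against 8.66% of all tested probes. The smallest adjusted p was 0.554. In the 19 other lanes none of the 36 passed the unadjusted p, against 2.36% of all. MiR-3471 had values of 10.09, 6.14, 6.35, 5.67 and 6.53 log2 CPM in the basal lanes, and 6.65, 6.48, 5.12, 6.35, 6.37 and 5.29 in the flaxseed lanes. Basal 1 alone was high, and the remaining basal lanes lay inside the flaxseed range. The log2 fold change of miR-3471 was -1.89 ± 0.62 (SE) with all lanes and -0.06 without basal 1. MiR-2141 had values of 8.81, 7.21, 6.99, 6.86 and 6.36 in basal and 9.18, 8.01, 12.54, 6.24, 7.35 and 6.11 in flaxseed lanes. Its log2 fold change of 2.75 ± 0.99 was 0.37 without flaxseed 3. MiR-1839-5p had a log2 fold change of 0.38 ± 0.16, and its sister arm miR-1839-3p had a log2 fold change of -0.83 ± 0.37 (adjusted p = 0.554 for both in edgeR). In the 19 other lanes these were 0.13 ± 0.13 and -0.41 ± 0.28. Under TMM basal 1 was the lowest of all lanes for the 5p arm and the highest for the 3p arm. By raw count its 57 counts of the 3p arm lay below other lanes, such as oil 3 (107) and basal 2 (59).

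Oil against basal asks what the oil, rich in alpha-linolenic acid, did. Here 5 probes passed an unadjusted p of 0.05, all lower in oil, against 16.1% of all tested probes, and the smallest adjusted p was 0.257. MiR-3471 led again (log2 fold change -1.70 ± 0.64) and was 0.17 without basal 1. Its oil lanes were close together, at 6.47, 6.30, 6.30, 6.28 and 6.40 log2 CPM. The probe for miR-1937a and miR-1937b had 15.63, 13.26, 12.14, 12.23 and 11.67 log2 CPM in basal lanes and 11.88, 10.97, 12.29, 11.54 and 12.05 in oil lanes. Its log2 fold change of -2.02 ± 0.81 was -0.62 without basal 1, and that of miR-1937c (-1.53 ± 0.70) was -0.57. Of the tested probes of the group, 26 of 36 lay below 0 (median -0.23, all probes -0.03). The other 10 lay above 0, against 47.6% of all probes. Under positive control scaling 29 of the 36 lay above 0 (median 0.21, all probes 0.28), and 28 under total count scaling (median 0.20, all probes 0.28). Both scalings thus moved all tested probes up, and the group's median stayed below that of all. In the 19 other lanes 4 probes passed the unadjusted p, all higher in oil, against 21.3% of all: miR-1191 (1.36 ± 0.44), miR-1944 (0.53 ± 0.21), miR-2132 (1.31 ± 0.51) and miR-2183 (0.61 ± 0.28). Without the 3 lanes the median was 0.06 (all probes 0.02) and 19 lay above 0. No probe of the group passed an adjusted p of 0.05 there, against 0.413% of all with the filter recomputed. No probe of the group separated the lanes of either diet from basal, against 1.18% of all in flaxseed and 2.76% in oil without the 3 lanes.

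SDG against basal asks what the lignan did. Only miR-1931 and miR-3471 passed an unadjusted p of 0.05, both lower in SDG, against 5.12% of all tested probes, and the smallest adjusted p was 0.785. MiR-1931 had 9.97, 6.09, 8.23, 9.14 and 6.30 log2 CPM in basal lanes and 5.25, 5.55, 5.09, 6.94, 7.59 and 7.20 in SDG lanes. The basal lanes split widely and the 2 lowest of them lay inside the SDG range. The log2 fold change of miR-1931 was -2.05 ± 0.69, and -1.40 without basal 1. In the 19 other lanes 4 probes of the group passed the unadjusted p, against 10.2% of all. MiR-1931 was lower in SDG (-1.75 ± 0.71), and miR-2140 (0.94 ± 0.44), miR-2141 (1.41 ± 0.65) and miR-2146 (1.28 ± 0.48) were higher. MiR-3471 stood at -1.39 ± 0.61 and turned to 0.47 without basal 1. MiR-1965 followed by p and stood at -0.31 ± 0.17 (-0.11 without basal 1, and 0.24 when scaled by housekeeping mRNAs).

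Flaxseed against oil asks whether the whole seed differed from its oil. At an unadjusted p of 0.05, 3 probes passed, all higher in flaxseed, against 23.6% of all tested probes. MiR-1839-5p had 9.06, 9.19, 9.46, 8.74, 8.84 and 8.86 log2 CPM in flaxseed and 8.66, 8.51, 8.37, 8.59 and 8.58 in oil lanes. Every flaxseed lane lay above every oil lane, also without flaxseed 3. Such separation of the lanes was found for this probe of the group and for 3.94% of all tested probes (7.48% without the 3 lanes). The log2 fold change of miR-1839-5p was 0.50 ± 0.16 (adjusted p = 0.0945), and 0.38 without flaxseed 3. DESeq2 called it (log2 fold change 0.43, adjusted p = 0.0310) together with miR-2141 (2.81, adjusted p = 0.0222), in a list that held 11.8% of all tested probes. DESeq2 gave no p for miR-1224, miR-1944 and miR-3471 in any comparison. Among the 31 to 33 probes of the group with an adjusted p it called none in the other 5 pairwise comparisons. For miR-2141 edgeR gave 2.97 ± 0.98, and 0.56 without flaxseed 3. The oil lanes of miR-2141 had 6.38, 7.92, 7.34, 7.38 and 6.57 log2 CPM, inside the flaxseed range.

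MiR-1224 followed in flaxseed against oil, at 1.91 ± 0.67 (adjusted p = 0.100). It had 8.81, 7.95, 12.26, 8.11, 7.69 and 8.39 log2 CPM in flaxseed and 7.84, 7.43, 8.32, 8.37 and 8.53 in oil lanes. Flaxseed 3 alone was high, and without it the log2 fold change was 0.05. In the group, 29 of 36 probes lay above 0 in this comparison (median 0.18, all probes 0.08), against 57.1% of all probes. Without the 3 lanes 13 did (median -0.03, all probes -0.01). With all lanes, 10 of the 36 lay above 0 under positive control scaling (median -0.26, all probes -0.27). Under total count scaling 12 did (median -0.15, all probes -0.16). Without the 3 lanes and with the filter recomputed on the 19 others, edgeR called 3 probes of the group, in a list with 12.8% of all probes tested. MiR-1839-5p was higher in flaxseed (0.39, adjusted p = 0.0415), while miR-1944 (-0.63, adjusted p = 0.0415) and miR-2132 (-1.56, adjusted p = 0.0415) were lower. With the 254 probes kept, 5 probes of the group passed an unadjusted p of 0.05 (1 higher and 4 lower in flaxseed), against 32.3% of all, and miR-1944 alone passed the adjusted threshold (-0.67 ± 0.20, adjusted p = 0.0465), in a list with 7.09% of all. Over those lanes miR-1944 had 13.5 ± 0.35 log2 CPM (SD, n = 5) in flaxseed and 14.2 ± 0.24 (n = 5) in oil.

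**Figure D4:**
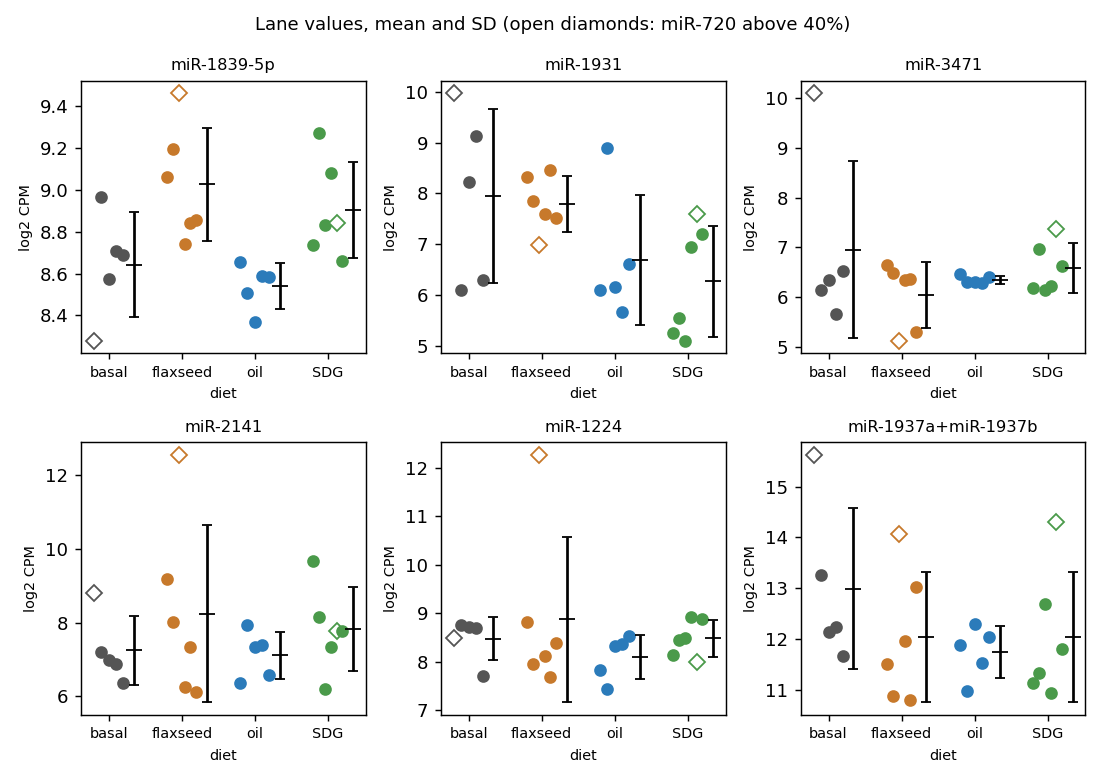
Log2 CPM of 6 four-digit probes in each lane by diet, with the mean and SD beside the points; open diamonds are the 3 lanes with miR-720 above 40%. MiR-1839-5p lies lower in every oil lane (8.37 to 8.66) than in every flaxseed lane, while miR-3471, miR-2141 and miR-1224 each have 1 lane far above the rest.

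Flaxseed against SDG asks whether the whole seed differed from its lignan. At an unadjusted p of 0.05, 2 probes passed, both higher in flaxseed, against 5.12% of all tested probes (smallest adjusted p 0.806). In the 19 other lanes 3 passed, against 7.48% of all. MiR-1196 (-1.22 ± 0.56) and miR-2146 (-1.22 ± 0.44) were lower in flaxseed and miR-1931 higher. In these lanes 6 of the 36 lay above 0 (median -0.20, all probes -0.06). With all lanes 21 of the 36 lay above 0, against 53.9% of all probes. With all lanes under positive control scaling 32 did (median 0.42, all probes 0.48), and 7 under total count scaling (median -0.14, all probes -0.09). The median of all probes thus moved with the scaling too. The 2 that passed with all lanes were miR-1224 (1.54 ± 0.62, and -0.30 without flaxseed 3) and miR-2141 (2.01 ± 0.88, and -0.38 without flaxseed 3). MiR-1224 had 8.14, 8.45, 8.49, 8.93, 8.0 and 8.88 log2 CPM in SDG lanes. MiR-2141 had 9.68, 8.16, 6.19, 7.33, 7.76 and 7.76. MiR-1931 followed, at 1.30 ± 0.66 (adjusted p = 0.823). Its flaxseed lanes had 8.33, 7.86, 6.98, 7.59, 8.46 and 7.51 log2 CPM. Without flaxseed 3 and SDG 5 every flaxseed lane of miR-1931 lay above every SDG lane, as in 1.97% of all tested probes, and the log2 fold change was 1.72 ± 0.68 (adjusted p = 0.553).

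Oil against SDG asks whether both components differed. MiR-1839-5p alone passed an unadjusted p of 0.05, against 7.48% of all tested probes (smallest adjusted p 0.472). In the 19 other lanes it passed again, with miR-1944 (0.43 ± 0.20), against 17.7% of all. MiR-1839-5p had 8.74, 9.27, 8.83, 9.08, 8.84 and 8.66 log2 CPM in SDG lanes. The highest oil lane (8.6579) lay just under the lowest SDG lane (8.6588), so the diets did not overlap, as in 2.36% of all tested probes (3.15% without the 3 lanes). Its log2 fold change was -0.37 ± 0.16 for oil over SDG, but 0.39 (adjusted p = 0.362) under positive control scaling, which moved the median of all probes to 0.79. MiR-1951 (-0.48 ± 0.26) and miR-1927 (-0.28 ± 0.20) followed, and both also turned positive under that scaling. The basal lanes of miR-1839-5p, at 8.28, 8.97, 8.57, 8.71 and 8.69, overlapped those of all 3 other diets. In the order of means, oil (8.54 ± 0.11) and basal (8.64 ± 0.25) were low and SDG (8.90 ± 0.23) and flaxseed (9.03 ± 0.27) high. The lanes of diets next to each other in this order overlapped.

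**Figure D5:**
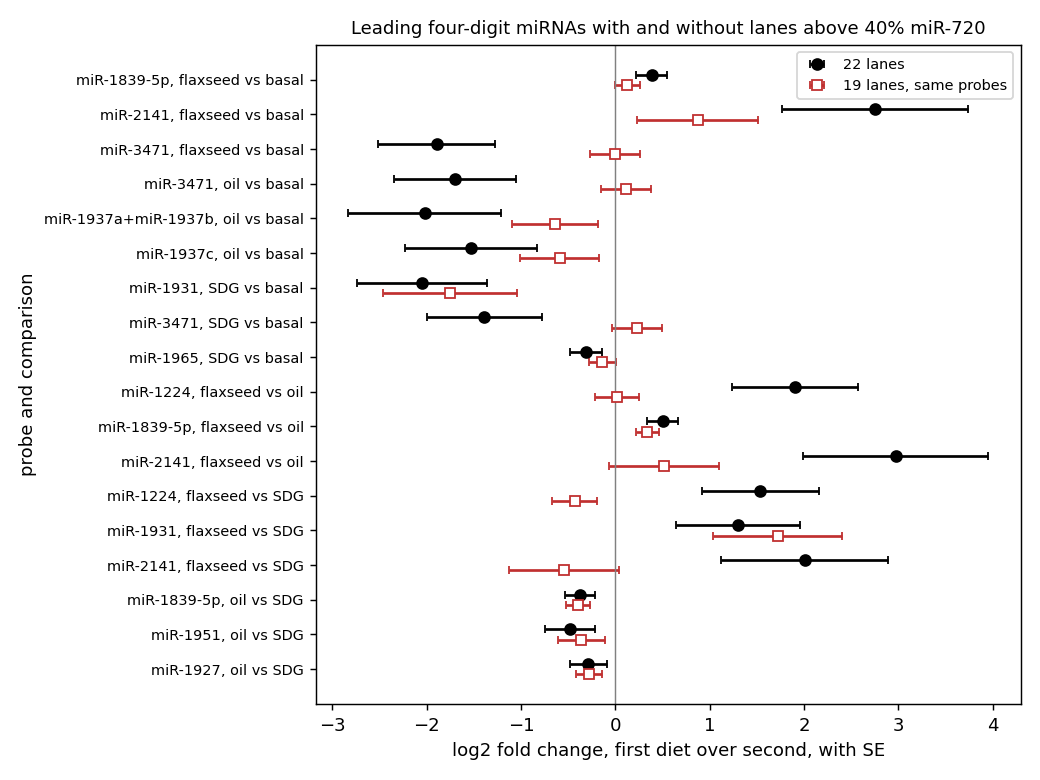
Log2 fold change with SE of the 3 probes with the smallest p in each comparison, from all 22 lanes (filled) and from the 19 lanes without high miR-720 with the same probes kept (open). Values of miR-3471, miR-1224 and miR-2141 move toward or across 0 without those lanes, while those of miR-1839-5p in flaxseed against oil (0.50 and 0.34) and oil against SDG (-0.37 and -0.40) stay on their side.

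In the test for any diet difference, 5 of 36 probes passed an unadjusted p of 0.05, against 14.2% of all tested probes, and the smallest adjusted p was 0.213, shared by miR-2141, miR-1224 and miR-3471. In the fit of the 19 other lanes, these had adjusted p of 0.374, 0.374 and 0.861.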

How the data were processed

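Per the file headers and labels, each deposited lane file gives unscaled counts for every probe. A second deposited table holds log2 values for 238 miRNAs, 33 of this group; the authors' scaling is not given in the sources used here, and it served as an alternative. Per the labels, the authors excluded animals basal 5 and oil 5 for low detection; they are not analysed here. Mice were randomized individually, and each lane is 1 mouse. Members and lists were chosen with earlier results of these data known. Probes above the mean plus 2 SD of a lane's 8 negative controls in at least 5 of 22 lanes were tested (254 of 599). One fit with edgeR 4.0.16 (limma 3.58.1, R 4.3.3) took TMM scaling and the 4 diets, and the script was tested on simulated data. SE is the absolute log2 fold change divided by the root of F. Counts of probes were compared by exact permutation tests (scipy 1.17.1). Alternatives were limma-voom, DESeq2 1.42.0 and its size factors, housekeeping, positive control and total count scaling (with and without miR-720), other filters, negative control subtraction, mouse probes only, only the diets compared, animal number as a block, leaving out the 3 lanes with high miR-720 or each lane in turn, and the log2 table. Housekeeping scaling without flaxseed 3 was added after seeing the data. Named probes were the 5 examples, the 3 with the smallest p per comparison, the 6 highest by level, those at the filter's edge, and the 5 highest and 5 lowest against miR-720; others, such as miR-1839-3p, miR-3072 and the even probes, were named after their values were seen.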

Additional observations from a re-analysis of the deposited data

Results flagged for a closer look

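Among the named probes that were tested, 18 probes in 4 diets gave 72 groups of 5 or 6 lanes. Of the 72 groups, 10 held a lane that stood apart from its diet by Dixon's test at the 95% level. Many of the 18 probes were named for a small p in these same lanes. The 1 in 20 reached by chance is therefore no measure for this count. Of these 10, 9 lay in lanes with miR-720 above 40%, and no flag lay in SDG 5. MiR-1186b and miR-2134 were tested only through the lanes with high miR-720, and without their 3 flags 7 remain, 6 of them in those lanes. Values are log2 CPM under TMM, and by raw count miR-1944 was lower in basal 1 (11071) than in basal 6 (13329). In basal 1, miR-3471 was 10.09 (nearest lane 6.53), miR-1944 was 16.16 (nearest 13.91) and miR-1186b was 7.18 (nearest 6.19). In flaxseed 3, miR-1224 was 12.26 (nearest 8.81), miR-1944 was 16.32 (nearest 13.99), miR-2132 was 13.36 (nearest 9.92), miR-2134 was 8.98 (nearest 6.16), miR-2146 was 9.68 (nearest 6.20) and miR-1186b was 6.51 (nearest 6.16). MiR-1186b had 21 and 20 counts in those lanes, where the background thresholds were 22.4 and 17.5 counts. The remaining flag was a low value, miR-1224 in basal 6 at 7.71 (nearest 8.48). The 3 lanes also held the most miR-720, and flaxseed 3 the fewest housekeeping counts; their part was not tested.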

How the results depend on the processing

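The number of probes of the group past an adjusted p of 0.05 was 0 in all 7 tests and stayed 0 under limma-voom, DESeq2 size factors, total count scaling with or without miR-720, negative control subtraction, mouse probes only, only the 2 diets compared, the stricter filter, the log2 table, the fit with animal number as a replicate block (0 in each test) and leaving out each lane in turn (0 to 0). Housekeeping scaling called 13 in flaxseed against basal (67 of all probes) and 10 for any diet (36 of all); without flaxseed 3 both were 0. It moved the median of all probes in flaxseed against basal to 1.39. Positive control scaling called 1 in flaxseed against oil (5 of all, median of all -0.27), 3 in oil against SDG (17 of all, median of all 0.79) and 1 for any diet (6 of all). No filter called 1 in oil against basal (1 of all). In flaxseed against oil DESeq2 called 2 (30 of all), and leaving out the 3 lanes with high miR-720 called 3 with the filter recomputed (31 of all) and 1 with the same probes (18 of all). The animal numbers did not pair the lanes (median r = 0.01 for same-numbered lanes, 0.02 for others; 3 of 22 lanes correlated best with their own number), and the block changed no call.

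Of 18 leading log2 fold changes under the alternatives other than leaving out 1 lane, 281 of 303 values kept side and call, 5 passed the threshold and 17 changed sign. Without the 3 lanes (filter recomputed, then same probes) miR-3471 was 0.079 (filter recomputed only) in flaxseed, 0.16 and 0.12 in oil, and 0.23 and 0.23 in SDG against basal, and 0.064 in SDG against basal by limma-voom. Likewise, in flaxseed against SDG miR-1224 was -0.35 and -0.43, and miR-2141 -0.46 and -0.54; under housekeeping scaling without flaxseed 3 they were -0.41 and -0.58. MiR-1965 in SDG against basal was 0.24 under housekeeping scaling with and without flaxseed 3. Under positive control scaling, oil against SDG gave 0.39 for miR-1839-5p, 0.32 for miR-1951 and 0.52 for miR-1927. Leaving out 1 lane gave miR-3471 in oil against basal -1.98 to 0.17 and in SDG against basal -1.68 to 0.47, and in flaxseed against SDG miR-1224 -0.30 to 1.76 and miR-2141 -0.38 to 2.51.

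The mean number of the group's probes above background differed by -1.07 between flaxseed and basal, 2.10 between SDG and basal and -3.17 between flaxseed and SDG. Flaxseed against basal turned to 0.23 with the highest negative control and 0.83 with 100 counts as the limit. SDG against basal turned to -1.50 with 100 counts and -0.35 without the 3 lanes, and flaxseed against SDG to 2.33 with 100 counts. Leaving out 1 lane gave ranges of -4.20 to 0.83, -1 to 4 and -6.30 to -0.07. None passed an adjusted p of 0.05. Positive control scaling left 5, 9 and 2 probes more than 2-fold up (8, 23 and 8 of all) and 9, 8 and 4 more than 2-fold down in basal 1, flaxseed 3 and SDG 5. Low counts limit the probes near the threshold, and the causes of these changes were not tested.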

Other observations

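Within the group, both arms of miR-1839 were measured. The 5p arm was above background in 22 lanes and the 3p arm in 14. Under TMM the 3p arm had its highest level of any lane in basal 1 (57 counts, 8.58 log2 CPM). The 5p arm had its lowest there (46 counts, 8.28 log2 CPM). By raw count the 3p arm was higher in other lanes, such as oil 3 (107) and basal 2 (59). In flaxseed 3 the 5p arm was highest under TMM (9.46 log2 CPM), though its 161 counts lay below the 365 of flaxseed 5. The 3p arm had 6.88 log2 CPM in flaxseed 3, against a median of 6.59 over the 19 lanes without high miR-720. These 2 lanes were chosen after their values were seen, and no test was made.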
